A study of Mus musculus with 4 samples.

Results

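miR-31 is a short RNA that guides Argonaute proteins to messenger RNAs and lowers their output. On these 2-colour microRNA arrays it was read by 1 probe, 1org-31, among 171 miRNA probes and 178 probes in all. The probe was chosen by its own ratios and ranks on the 4 arrays, with earlier results of these data known, so its values are a description and carry no test. The platform annotation lists 1org-31 as Mirn31, the older symbol of mouse Mir31, and the number in the probe ID is the same. The arrays set RNA of mouse activated T cells carrying transduced Foxp3, which encodes the master regulator of regulatory T cells (Treg), against RNA of activated T cells given a control vector. Total RNA of both was hybridised together at 72 h and at 96 h, with 2 arrays per time point. On 1 array of each time point the Foxp3 RNA carried the dye Cy5 and on the other it carried Cy3, and the arrays are called Cy5 array and Cy3 array for the dye of the Foxp3 RNA. All cells, the controls included, were activated and transduced. The vector, the mouse strain and age, the number of cultures and how transduced cells were picked are not given in the sources used here. The 2 arrays of a time point share their RNAs, so n was 2 time points, whose spread may be technical. In RNA of whole cultures, fewer cells that express a miRNA and less of it per cell cannot be told apart.

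As background, miR-31 is known from epithelium, smooth muscle and cancer cells, where RhoA is among its targets, and it is also made in activated T cells. In human natural Treg it is scarce, and it lowers FOXP3 by binding the FOXP3 messenger RNA. The arrays measured neither Foxp3 messenger RNA nor protein.

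The sequences show what separates miR-31 from the miRNAs that stood nearest to it at 72 h. They come from RefSeq, build GRCm38.p6, which is not a build of the value table. The Mir31 hairpin of 106 bases lies on the minus strand at chr4:88910557-88910662, inside the span of the long non-coding RNA Gm49890. The nearest protein-coding genes on either side of it are Ifne, an interferon, at 30356 bp before it and Mtap, an enzyme of methionine salvage, at 226708 bp after it. In the hairpin, capitals mark the 5p arm (bases 28 to 49) and the 3p arm (bases 64 to 86).
Mir31 hairpin: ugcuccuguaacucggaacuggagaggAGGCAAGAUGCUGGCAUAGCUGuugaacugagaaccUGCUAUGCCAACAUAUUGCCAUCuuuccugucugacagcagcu
In the mature forms of miR-31 and of miR-155 and miR-22, the next probes in rank at 72 h, capitals mark the seed, bases 2 to 8, which pairs with target RNAs.
miR-31-5p: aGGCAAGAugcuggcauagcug
miR-31-3p: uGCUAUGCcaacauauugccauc
miR-155-5p: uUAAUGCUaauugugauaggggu
miR-155-3p: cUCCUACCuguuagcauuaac
miR-22-3p: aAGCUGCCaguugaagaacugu
miR-22-5p: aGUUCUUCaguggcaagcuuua

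These 6 mature forms have 6 different seeds. None of the 1679 mature miRNA names in the RefSeq table other than miR-31-5p has its seed, and none other shares even bases 2 to 7. A seed of its own is common in that table, at 1211 of 1398 seeds (86.6%). The longest run of letters that miR-31-5p shares with miR-155-5p or miR-22-3p is 5 bases. Of the 61 probes listed with 1 gene symbol, 51 were matched to the table by symbol, and the longest run shared with any of the 96 other mature sequences of these genes was 7 bases, in miR-23b-5p. miR-31-5p holds 54.5% G and C, above 78 of those 96, whose median is 45.5%. Which arm the probe reads, and its own letters, are not given in the sources used here.

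The value table gives 1 log ratio of the channels per probe and array, taken here as log2. On the 72 h Cy5 array, 1org-31 had a deposited value of 0.98. On the 72 h Cy3 array it had -1.52. At 96 h it had 1.22 on the Cy5 array and -0.40 on the Cy3 array. The sign followed the dye of the Foxp3 RNA on all 4 arrays, positive in Cy5 and negative in Cy3. That held for 13 of the 171 miRNA probes, 3 in this direction (1.75%) and 10 in the opposite one. The other 2 in this direction were 1org-183, whose number is that of a miRNA made with miR-96 and miR-182, and 2org-214. The lowest of the 4 ratios, once turned, was 0.40 for 1org-31, 0.21 for 2org-214 and 0.10 for 1org-183.

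No source states the direction of the ratios. Values below were read as Cy5 over Cy3 and turned in sign where Foxp3 was in Cy3, so that a positive turned ratio stands for a level likely higher with Foxp3. The opposite channel order would change the sign of every one of them. If the authors had instead turned the ratios before deposit, 1org-31 would average -0.27 at 72 h, rank 63 of 171, and 0.41 at 96 h, below the probes' median of 0.65. The arrays also shared no centring. The median turned ratio of the miRNA probes was -0.59 on the Cy5 array and 0.83 on the Cy3 array of 72 h, and 1.27 and -0.02 on those of 96 h, so the place of 1org-31 among the other probes is given beside each value.

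**Figure D1:**
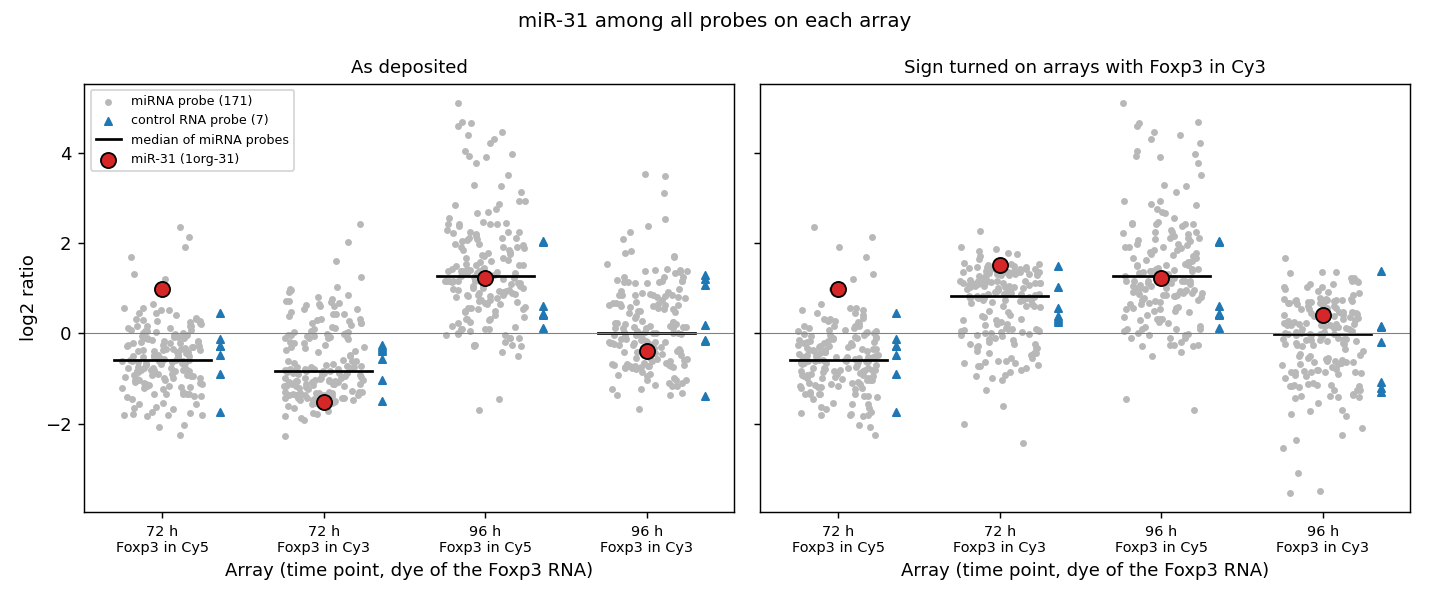
Log2 ratio of every probe on each array (x axis: time point and dye of the Foxp3 RNA), as deposited (left) and with the sign turned where Foxp3 was in Cy3 (right). Grey points are the 171 miRNA probes, blue triangles the 7 control RNA probes, black lines the miRNA medians and red points 1org-31, which is above 0 on all 4 turned arrays but at the median, 1.22 against 1.27, on the 96 h Cy5 array.

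At 72 h, miR-31 stood high in both dye orientations. On the Cy5 array its turned ratio of 0.98 was the 7th highest of 171, above 95.9% of miRNA probes and 1.57 above the array's median. That distance is 3.41 times the median absolute deviation of the probes. The next probe up was 1org-155, at 1.21, and the next down 2org-224, at 0.65. On the Cy3 array its turned ratio of 1.52 was the 13th highest, above 92.4% of probes. There it lay 0.69 above the median, or 1.30 median absolute deviations, in a dense part of the array between 1org-30a at 1.53 and 2org-219 at 1.49. Its distance from the median was thus larger on the Cy5 array.

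The 72 h mean was 1.25 ± 0.38 (SD, 2 arrays of the same RNAs), a 2.38-fold ratio, and the highest of all 171 miRNA probes. It was the 1 probe past 2-fold with the same sign on both arrays. With a pair average past 1.5-fold and both arrays alike in sign, 4 of 171 probes were likely higher (2.34%), and 9 were likely lower (5.26%). With U6 and the tRNAs as the zero point the split was 3 against 12. The 2 arrays differed by 0.54 for 1org-31, where the median difference over all probes was 1.51. Centred on the miRNA medians the difference was 0.88, the 71st smallest, against a median of 1.08, and the SD of the 2 arrays was 0.62. For 48 of 171 probes the part of the 72 h ratio that followed the samples exceeded the part that followed the dyes, and for 27 after that centring. For 1org-31 the part that followed the dyes was -0.27 as deposited and 0.44 after centring. Centred on the miRNA medians, the mean was 1.13 and still the highest, and with U6 and the tRNAs as the zero point it was also 1.13. On either array alone other probes ranked above it, so its first place is a feature of the average.

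At 96 h miR-31 lay in the middle of the miRNA probes. On the Cy5 array its turned ratio of 1.22 ranked 89 of 171, 0.05 below the median, between 1org-130a at 1.22 and 1org-7i at 1.20. On the Cy3 array its ratio of 0.40 ranked 54 of 171, 0.42 above the median, between 1org-292-s at 0.42 and 1org-301 at 0.39. The mean was 0.81 ± 0.58 (SD, 2 arrays of the same RNAs), a 1.75-fold ratio, and ranked 83 of 171, beside a median of 0.81. It passed 1.5-fold together with 79 of 171 probes on the likely higher side (46.2%), so its passing is no result about miR-31. On the likely lower side 9 passed (5.26%). Centred on the miRNA medians, 30 probes passed as likely higher and 43 as likely lower, and 1org-31, at 0.19, did not pass. Centred on all 7 control RNAs, 63 passed as likely higher and 23 as likely lower, and 1org-31, at 0.53, did not pass. Read from the Cy3 array alone it was at 0.40 and did not pass, and from the Cy5 array alone it was at 1.22.

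**Figure D2:**
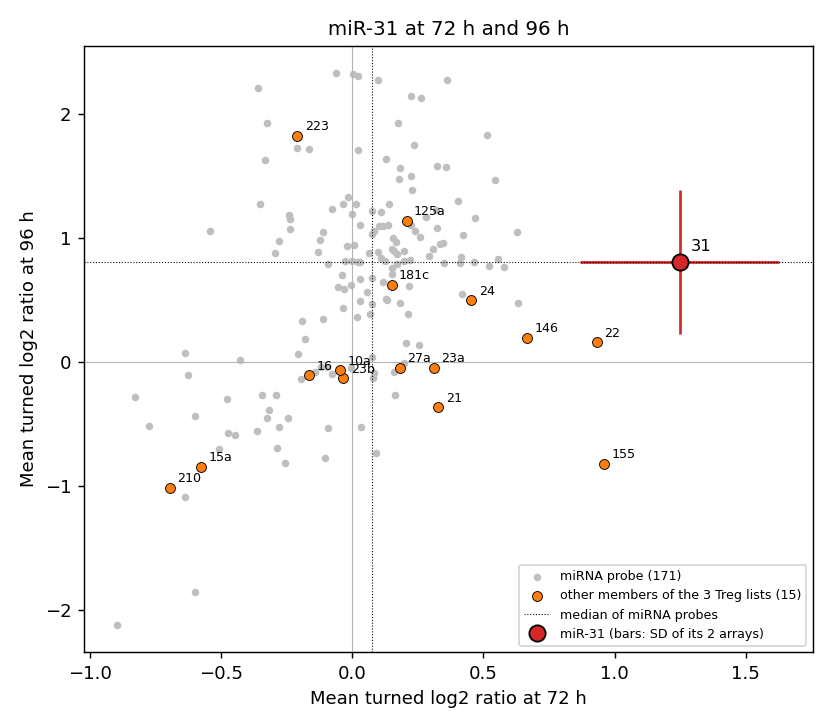
Mean turned log2 ratio at 72 h (x axis) and at 96 h (y axis) of the 171 miRNA probes (grey), with 1org-31 in red (bars: SD of its 2 arrays) and the 15 other measured members of 3 lists on regulatory T cells and Foxp3 in orange, labelled by miRNA number. 1org-31 is the point farthest right, at 1.25, and lies on the 96 h median line at 0.81.

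Over both time points the mean turned ratio was 1.03 ± 0.31 (SD, n = 2), a 2.04-fold ratio that ranked 10 of 171. The rank was 48 without the 72 h Cy5 array, 8 without the 72 h Cy3 array, 2 without the 96 h Cy5 array and 33 without the 96 h Cy3 array, and 90 if the ratios had been turned before deposit. The 9 probes with a higher mean, among them 2org-224, 1org-196 and 1org-192, were each negative on 1 of the 4 arrays. Their 72 h means ran from -0.06 to 0.51, all below that of 1org-31, and their 96 h means from 1.83 to 2.33, all above it. They were thus high by their 96 h values, while 1org-31 was high by its 72 h value. Centred on the miRNA medians the mean of 1org-31 was 0.66 ± 0.67 (SD, n = 2), so that its spread between time points was as large as the mean. From 72 h to 96 h its ratio differed by -0.44, while the median probe differed by 0.61, and its difference was the 12th lowest of 171. Without each array in turn the difference ran from -0.85, without the 96 h Cy5 array, to -0.03, without the other 96 h array. With 1 RNA pair per time point this difference has no test.

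Order within an array does not change with any centring. On all 4 turned arrays 1org-31 lay above 63 of the other 170 miRNA probes (37.1%), more than any other probe did. The next were 1org-190, above 57, and 1org-183, above 47, and the median probe lay above 4. No probe lay above 1org-31 on all 4 arrays, a property of 54 probes in all. For 107 of 170 the order differed between arrays. In the other reading, with ratios turned before deposit, 1org-31 lay above 5 and below 5 probes on all 4 arrays.

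The 63 of 170 probes (37.1%) that 1org-31 exceeded on all 4 arrays were set against the lists. With ratios turned before deposit it exceeded only 5 probes, so the counts below rest on the reading of the sign. They also come from the values by which 1org-31 was chosen, so they are a description and carry no test. A list with low turned ratios is more readily exceeded by any probe, so the counts are no result particular to miR-31. Of the 16 measured miRNAs listed as reduced by T cell activation, 15 were exceeded, all but 1org-26b. Among them were all 8 let-7 probes of that list, which restrain growth genes. Of 17 measured miRNAs listed as induced by T cell activation, 11 were exceeded, among them 2org-221 and 2org-222, which restrain the cell cycle inhibitor p27, and 1org-20 of the miR-17 cluster. Of 10 listed as higher in mouse Treg it was 7, and of the 4 measured lymphoid markers it was 3. Of the stromal and endothelial markers it was 0 of 8, of the epithelial markers 1 of 6, of the neural markers 0 of 4 and of the liver markers 0 of 3. Probes of these other cell types had higher medians at 96 h than the T cell lists, 1.18 for the stromal and endothelial, 0.85 for the epithelial, 1.12 for the neural and 0.89 for the liver markers, against -0.45 for the activation-induced and -0.27 for the activation-reduced miRNAs. At 72 h the corresponding medians were 0.16, 0.09, 0.06 and 0.03, against 0.03 and -0.40. The median of all miRNA probes was 0.81 at 96 h and 0.07 at 72 h. Centred on the miRNA medians, the 96 h list medians were 0.55, 0.23, 0.50 and 0.26, against -1.07 and -0.89. Had the ratios been turned before deposit, this order at 96 h would not hold for the stromal and endothelial markers and would be near a tie for the liver markers, with medians of 0.55 for the stromal and endothelial, 2.70 for the epithelial, 0.67 for the neural and 0.63 for the liver markers, against 0.63 for the activation-induced and 0.57 for the activation-reduced miRNAs. Their part in the place of miR-31 was not tested. The values are ratios and hold no level, so they cannot show which cell types were present, and the lymphoid markers 1org-142-s, 1org-142-as, 1org-150 and 1org-155 cannot be checked for presence either.

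The miRNAs reported to act on Foxp3 were taken as a list, miR-31, miR-24, miR-210, miR-15a and miR-16, all measured. By the pair averages, miR-31 and 1org-24 lay above 0 at both time points, and the other 3 lay below 0 at both. Of all 171 miRNA probes, 102 lay above 0 at 72 h and 127 at 96 h. Centred on the miRNA medians, miR-31 was at 0.19 and 1org-24 at -0.12 at 96 h. Probe 1org-24 had turned ratios of 0.33 and 0.58 at 72 h and of 1.15 and -0.15 at 96 h. It was below 1org-31 on every array, and by as little as 0.07 on the 96 h Cy5 array. Probe 2org-210, whose number is that of the hypoxia-induced miR-210, had -0.70 and -0.69 at 72 h and 0.05 and -2.08 at 96 h. miR-31 exceeded it by 1.94 at 72 h and 1.82 at 96 h. miR-15a and miR-16, made from 1 cluster and known to restrain Bcl2, both lay below miR-31 on all 4 arrays. Probe 1org-15a had -0.61 and -0.54 at 72 h and -0.26 and -1.43 at 96 h, and 1org-16 had -0.09 and -0.24 at 72 h and -0.10 and -0.11 at 96 h. Past 1.5-fold with the same sign on both arrays were 1org-31 at both time points on the likely higher side, 2org-210 at 72 h and 1org-15a at 96 h on the likely lower side. Of all 171 miRNA probes, 2.34% passed as likely higher and 5.26% as likely lower at 72 h. At 96 h these shares were 46.2% and 5.26%. The list median was -0.16 at 72 h and -0.10 at 96 h, against 0.07 and 0.81 over all miRNA probes. In the reading as turned before deposit it was -0.035 at 72 h, above the -0.67 of all miRNA probes, and 0.59 at 96 h, below their 0.65.

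Of the human Treg signature, miR-21, miR-31, miR-125a, miR-181c and miR-374, 4 were measured and miR-374 matched no probe. In human cells miR-31 and miR-125a are known as lower, and miR-21 and miR-181c as higher, in natural Treg. Probe 1org-125a had turned ratios of -0.88 and 1.30 at 72 h and 1.62 and 0.67 at 96 h, so its 72 h arrays went opposite ways while those of miR-31 did not. The miRNA medians of the 72 h arrays, -0.59 and 0.83, also had opposite signs. Probe 2org-181c had -0.52 and 0.82 at 72 h and 0.71 and 0.54 at 96 h. miR-21, an activation-induced miRNA, had 0.44 and 0.21 at 72 h and 0.10 and -0.83 at 96 h, below miR-31 on all 4 arrays. By the pair average and with the same sign on both arrays, miR-31 passed 1.5-fold at 72 h, and miR-31, miR-125a and miR-181c did at 96 h, all likely higher, where 46.2% of all miRNA probes passed on that side. The list median was 0.27 at 72 h, against 0.07 over all miRNA probes, and 0.72 at 96 h, below the 0.81 of all.

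Of the probes next in rank at 72 h, 1org-155 parted most from miR-31 at 96 h. Mir155, which T cell activation induces and which sustains Treg numbers, had 1.21 and 0.71 at 72 h and -0.25 and -1.40 at 96 h. miR-31 minus miR-155 was -0.23 and 0.81 on the 72 h arrays and 1.47 and 1.80 on the 96 h arrays. Mir22 had 0.51 and 1.36 at 72 h and 0.58 and -0.26 at 96 h, and miR-31 exceeded it on all 4 arrays, by 0.16 to 0.66 (on average 0.31 at 72 h and 0.65 at 96 h). Probe 1org-146, whose number is that of an inhibitor of Toll-like receptor signalling, was exceeded on all 4 arrays, by 0.29 to 0.94, and by about as much at 72 h (0.58) as at 96 h (0.61). By the pair averages, the widest gap at either time point was to 2org-222, with 1.79 and 2.50 at 72 h and 2.92 and 2.94 at 96 h. With 1 RNA pair per time point, such a difference between time points has no test.

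**Figure D3:**
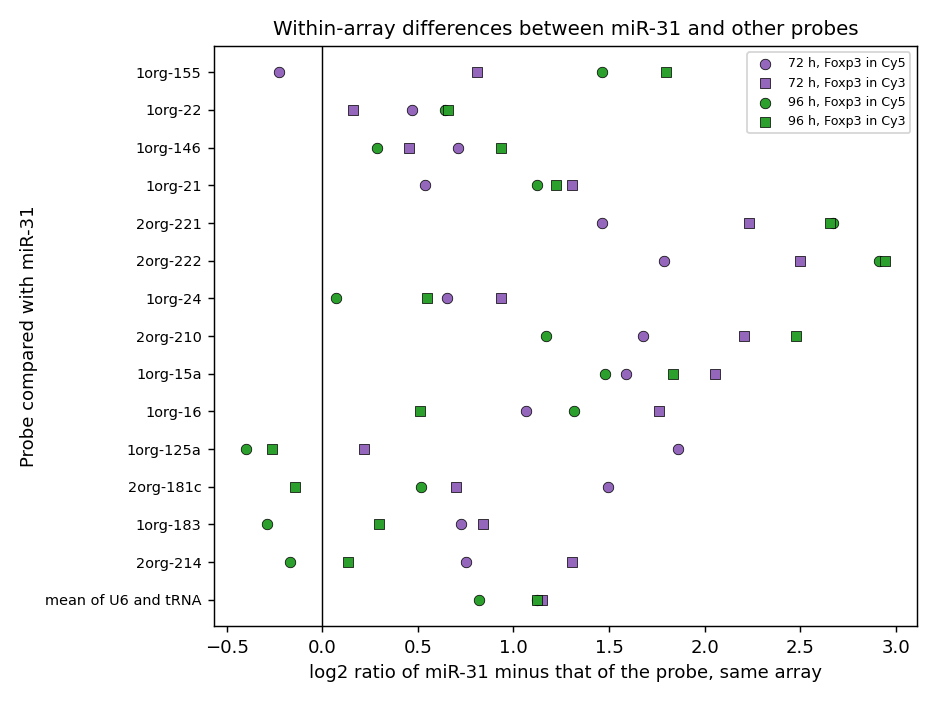
Turned log2 ratio of 1org-31 minus that of each probe on the y axis, on the same array (purple: 72 h, green: 96 h; circles: Foxp3 in Cy5, squares: Foxp3 in Cy3). Points right of 0 mean that miR-31 had the higher ratio, as on all 4 arrays for 2org-222, 2org-210 and 1org-15a, whereas 1org-155 has 1 point left of 0, at -0.23.

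The probes most like 1org-31 over the 4 turned arrays, by Euclidean distance, were 1org-22 at 1.05, 1org-183 at 1.19, 2org-197 at 1.20, 1org-24 at 1.27 and 1org-146 at 1.29, where the median distance was 2.34. Centring each array gives the same distances, since it moves every probe of an array alike. Probe 1org-183 had 0.25 and 0.68 at 72 h and 1.51 and 0.10 at 96 h, and 2org-197 had 0.12 and 1.04 at 72 h and 1.66 and -0.13 at 96 h. Both met the 96 h values of miR-31 more closely than its 72 h values. 1org-22 instead lay closer to it at 72 h than at 96 h.

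Against the control RNAs, miR-31 was compared on each array with the mean of the U6 and the 4 tRNA probes. miR-31 minus that mean was 1.12 and 1.15 at 72 h and 0.82 and 1.12 at 96 h (Cy5 array, then Cy3 array). In this scaling its 72 h value of 1.13 and its 96 h value of 0.97 lay close together. Its range over the 4 arrays, 0.33, was the 2nd smallest of the 171 miRNA probes after that of 2org-320, where the median range was 1.95. This rests on the reading of the sign, since with ratios turned before deposit the differences ran from -1.15 to 1.12, a range of 2.27 that was the 100th smallest. It was 1 of 10 miRNA probes above this mean on all 4 turned arrays. Each of the 5 controls in that mean gave a wider range when taken alone. These 5 controls were picked from the 7 with earlier results known, and the other 2, both small nuclear RNAs, gave other differences. From the mean of these 2, miR-31 differed by 2.29 and 0.26 at 72 h and by -0.81 and -0.36 at 96 h. Against the mean of all 7 controls, miR-31 was higher by 1.46 and 0.89 on the 72 h arrays and by 0.36 and 0.70 on the 96 h arrays.

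**Figure D4:**
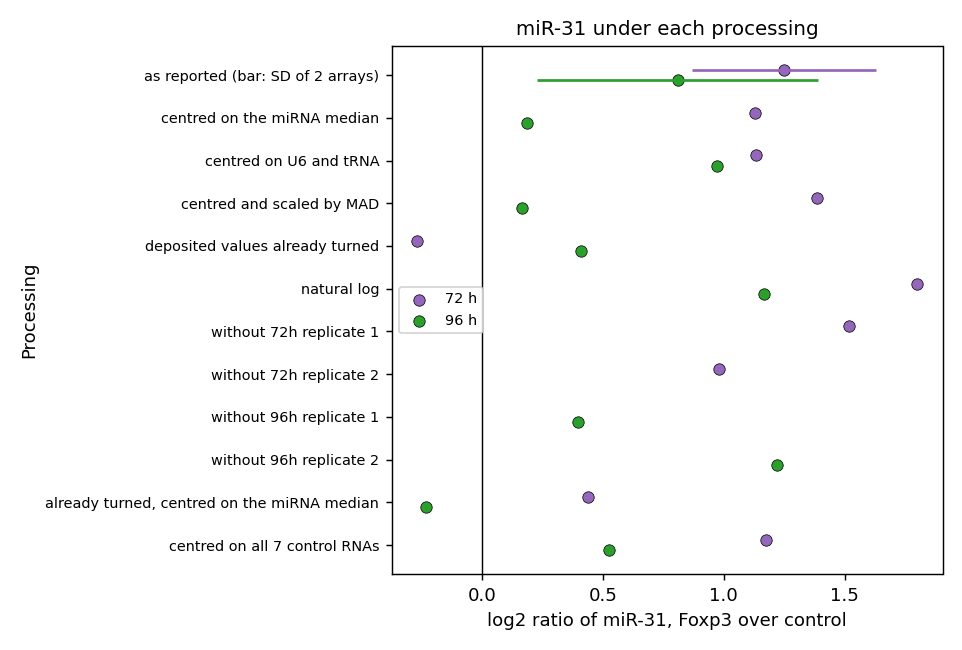
Log2 ratio of 1org-31 (x axis, Foxp3 over control) at 72 h (purple) and 96 h (green) under each processing on the y axis, with bars for the SD of the 2 arrays as reported. The 72 h value lies between 0.98 and 1.80 except when the deposited values are taken as already turned, at -0.27, or 0.44 when centred as well.

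Across all 171 miRNA probes, limma over the 2 time point means called 0 probes (0.0%) at a Benjamini-Hochberg adjusted p under 0.05, and 16 had an unadjusted p under 0.05. None of the other members of the lists above was thus called. The main fit gave all 171 probes the same standard error, 0.48. Its p-values therefore order the probes by the size of their means and do not measure the spread of each. 1org-31 is among the 16, which is no test of it, because the probe was chosen on these values. The number called ranged from 0 to 94 when single arrays were left out, with 94 without the 72 h Cy5 array and 3 without the 96 h Cy5 array.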

How the data were processed

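The deposited value table held 1 signed value per probe on 4 2-colour arrays, read as log2 ratios of the channels. The scanner, background correction, normalization, log base and direction are not given in the sources used here. Dyes and RNAs came from the labels. The miRNA probes were ranked on each array, ratios were turned where the Foxp3 RNA was in Cy3, and each dye pair was averaged to 1 replicate. A probe counted as past 1.5-fold if its dye-pair average reached that fold and its 2 arrays had the same sign. limma 3.58.1 (R 4.3.3) fitted an intercept to the 2 time point means of 171 miRNA probes. The fit was tried on simulated independent normal values. These lack the shifts between arrays seen here, so they do not show how the fit does on these arrays. The 7 control RNAs were left out. Precision is limited by the number of arrays. The probe, the lists and the rules were chosen with earlier results of these data known. Named were 1org-31, its rank neighbours, its 5 nearest probes, probes as high at 72 h or positive throughout, members of the Treg signature and Foxp3 lists, and, chosen after values were seen, further probes for contrast. List members were matched by the number in the probe ID. Alternatives were centrings, scaling, readings of the sign, natural logs, thresholds, probe sets and arrays left out.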

Additional observations from a re-analysis of the deposited data

How the results depend on the processing

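Under every alternative that kept the assumed reading of the sign, miR-31 had ratios above 0 at both time points. Its 96 h minus 72 h difference was below 0 under each of them. No source states which reading of the sign is right. As reported, 7.60% of the miRNA probes passed 1.5-fold at 72 h and 51.5% at 96 h. Centred on the miRNA medians, it was 0.19 at 96 h and 0.66 on average, 4.68% of probes (8) passed 1.5-fold at 72 h, and limma called 2 probes. Scaled by the median absolute deviation as well, miR-31 was at 0.17 at 96 h, and the difference was -1.22. Read as natural logs, it was 1.80 at 72 h and 1.48 on average, and 14.6% of probes (25) passed at 72 h. Taken as already turned, it was -0.27 at 72 h and 0.071 on average, the difference was 0.68, 56.1% of probes passed at 72 h and 33.9% at 96 h, and limma called 3. With that reading centred on the miRNA medians, an alternative chosen after seeing the data, it was 0.44 at 72 h, -0.23 at 96 h and 0.10 on average, and 44.4% and 16.96% of probes passed. At 2-fold 0.585% (1 probe) and 28.7% (49 probes) passed, and among the 61 probes with a symbol 11.5% and 47.5%. With 1 array left out, where no second sign is asked for, 55.0% to 72.5% of probes passed at 72 h and 56.7% to 77.8% at 96 h, and limma called 0 to 94. The cause of these changes was not tested. Centring on all 7 controls was also added after seeing the data and moved no value of miR-31 beyond its spread, though it took miR-31 below 1.5-fold at 96 h. Each ratio already pairs the 2 RNAs of its array. No further pairing across time points was possible, because the replicate numbers only name the dye orientation. Without intensities, signal over background is not known for any probe, which limits what a ratio near 0 or an extreme one can show.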

Other observations

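The single control RNAs differed in how evenly miR-31 stood above them. From tRNA-ala it differed by 1.25 and 1.21 on the 72 h arrays and by 0.79 and 1.60 on the 96 h arrays, and from tRNA-met by 1.11 and 1.18, then 0.80 and 1.70. From U6 it differed by 1.26 and 1.13, then 1.10 and 0.24. miR-31 exceeded U6 and each of the 4 tRNAs on all 4 turned arrays, and the other small nuclear RNAs on 3 and on 2. From tRNA-his the differences ran from 0.54 to 1.48 and from tRNA-pro from 0.60 to 1.45. The range of 0.33 over the 4 arrays is that of the difference from the mean of U6 and the tRNAs. Each of these 5 controls alone gave a wider range, so the evenness is a feature of their mean.

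On the Cy5 array of 72 h (named for the dye of the Foxp3 RNA), 6 probes lay above miR-31. They were 1org-200a at 2.36, 1org-200b at 2.12, 2org-200c at 1.92, 1org-99b at 1.69, 1org-206 at 1.32 and 1org-155 at 1.21. On the other 72 h array, once turned, 1org-200a was the lowest of all 171 miRNA probes at -2.43, and 1org-99b and 1org-206 were below 0 at -0.43 and -0.23. Of these 6, 1org-155 alone stayed above 0 on that array, at 0.71, with miR-31 at 1.52.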
